A study of Mus musculus with 8 samples.

Results

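The expression of 10 chemokine ligand genes was followed in microglia of the mouse visual thalamus after optic nerve injury: Ccl2, Ccl3, Ccl4, Ccl5, Ccl7, Ccl9, Ccl12, Cxcl2, Cxcl10 and Cxcl16. They were taken by name, as the rows of the count table whose Ensembl identifier belongs to each symbol, and all 10 were found among 26062 genes. All 10 also passed the filter on low counts, which left 17390 genes for testing. RNA was sequenced from the lateral geniculate nucleus (LGN), a relay for retinal input, of wild type male C57BL/6J mice aged 2 to 3 months. The groups were uninjured mice (2 libraries), mice 1 day after crush of both optic nerves (3 libraries) and mice 3 days after crush of both (3 libraries). Cells were pulled out on magnetic beads that bind CD11b, which other myeloid cells also carry, and the RNA was amplified before sequencing. The labels name no sham operation and do not state whether a library is 1 animal or several, and the p-values therefore rest on spread among libraries that may be technical in origin.

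Chemokines are small secreted proteins that bind G protein-coupled receptors and draw leukocytes along a gradient. In the brain, microglia are a main source of the CC ligands, and many ligands are made on demand: NF-kB and AP-1 switch their genes on after Toll-like receptor, TNF or interleukin-1 signals, interferons add to some, and unstable mRNA lets the level fall again quickly. Ccl3, Ccl5 and Ccl9 act on Ccr1, and Ccl4 attracts monocytes and T cells as Ccl3 and Ccl5 do. Ccl2, Ccl7 and Ccl12 act on Ccr2, the monocyte receptor, Cxcl2 on Cxcr2 of neutrophils, Cxcl10 on Cxcr3 of activated T and NK cells, and Cxcl16, which is made as a membrane protein, on Cxcr6.

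The libraries held 12700098 to 17994861 counts, and every ligand had at least 309 counts in every library. Summed levels of 10 microglial markers were 8254 to 10852 CPM (counts relative to the library total, scaled by the trimmed mean of M-values, TMM) in uninjured mice, 11794 to 14499 at 1 day and 8076 to 9542 at 3 days, with none at 0. Markers of other cells differed between groups too: 10 endothelial markers summed to 1633 to 1776, 822 to 898 and 1438 to 1515 CPM, and 7 choroid plexus and ependymal markers to 521 to 5495, 0.467 to 56.7 and 621 to 3555 CPM. Mitochondrially encoded genes took 21.3 to 22.5% of counts in uninjured mice, 13.6 to 21.9% at 1 day and 22.8 to 30.3% at 3 days. In each group, fewer cells of a type and less RNA per cell cannot be told apart.

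The ligands followed different courses. At 1 day Ccl3, Ccl4 and Ccl5 were higher than in uninjured mice. At 3 days Ccl5, Ccl9 and Cxcl10 were, by 5.17, 2.32 and 4.01 times, while Ccl7 lay 2.22 times below its level at 1 day. Ccl2, Ccl12, Cxcl2 and Cxcl16 passed the test in no comparison. A gene is called here at an adjusted p under 0.05 by edgeR's quasi-likelihood test, with Benjamini-Hochberg adjustment over all tested genes.

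**Figure D1:**
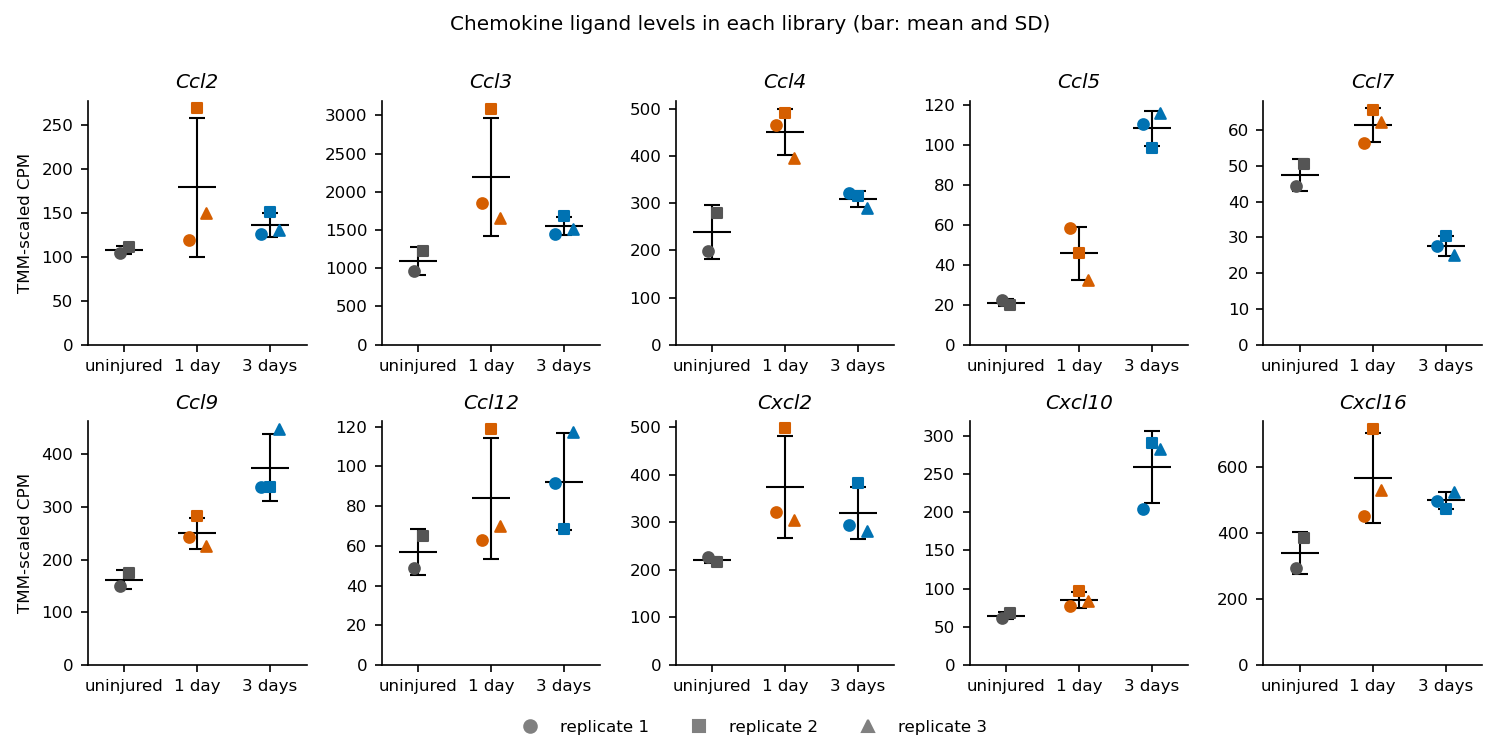
Level of each ligand in TMM-scaled CPM (vertical axis, from 0) in every library, by group, with bars for mean and SD over the libraries of a group. Ccl5, Ccl9 and Cxcl10 step up at 3 days and Ccl7 is lowest there, while replicate 2 of the 1-day group (square) stands highest for Ccl2, Ccl3, Cxcl2 and Cxcl16.

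Promoters of Cxcl10 and Ccl9, called higher at 3 days, and of Cxcl2 and Ccl3, not called there, are shown for comparison, as 250 bases up to the RefSeq transcript start (GRCm38.p6), written along the gene's strand. RefSeq windows were at hand for Ccl3, Ccl9, Ccl12, Cxcl2 and Cxcl10. Capitals mark letters matching NF-kB in 3 spellings that overlap one another (GGGA and CC with any 4 bases between, GGG and TTCC with any 3 between, or GGA and TTCC with any 2 between), AP-1 (TGANTCA), the interferon-stimulated response element (GAAA and GAAA with any 2 bases between) or the TATA box (TATAAA), searched on both strands. The windows are chr5:92348890-92349139 (minus strand) for Cxcl10, chr5:90903649-90903898 (plus) for Cxcl2, chr11:83578637-83578886 (minus) for Ccl9 and chr11:83649379-83649628 (minus) for Ccl3.
Cxcl10: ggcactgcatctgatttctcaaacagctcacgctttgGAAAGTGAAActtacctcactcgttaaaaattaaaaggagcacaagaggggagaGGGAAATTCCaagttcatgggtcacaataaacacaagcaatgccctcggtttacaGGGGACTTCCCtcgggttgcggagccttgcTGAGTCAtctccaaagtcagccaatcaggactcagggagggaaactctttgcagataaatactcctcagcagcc
Cxcl2: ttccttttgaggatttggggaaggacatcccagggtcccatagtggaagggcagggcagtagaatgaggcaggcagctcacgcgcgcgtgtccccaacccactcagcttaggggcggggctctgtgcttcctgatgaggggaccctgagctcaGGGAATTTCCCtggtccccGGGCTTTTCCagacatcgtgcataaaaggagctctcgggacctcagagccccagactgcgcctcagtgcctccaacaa
Ccl9: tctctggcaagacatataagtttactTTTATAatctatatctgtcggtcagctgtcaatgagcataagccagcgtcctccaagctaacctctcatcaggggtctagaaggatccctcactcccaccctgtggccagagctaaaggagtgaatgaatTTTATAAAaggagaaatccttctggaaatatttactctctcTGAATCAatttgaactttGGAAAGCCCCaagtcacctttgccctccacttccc
Ccl3: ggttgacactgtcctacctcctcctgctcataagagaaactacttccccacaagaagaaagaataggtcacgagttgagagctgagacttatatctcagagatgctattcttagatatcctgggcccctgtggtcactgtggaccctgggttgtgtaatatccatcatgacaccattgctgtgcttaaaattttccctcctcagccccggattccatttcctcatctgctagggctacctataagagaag

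Counting from 1 at the base next to the start, Cxcl10 had NF-kB letters at 159 to 150 and 104 to 94, the AP-1 letters TGAGTCA at 74 to 68 and the interferon element GAAAGTGAAA at 213 to 204. Cxcl2 had NF-kB letters at 97 to 87 and 78 to 69 and neither AP-1 nor interferon letters. Ccl9 had NF-kB letters on the opposite strand at 35 to 26 and AP-1 letters at 53 to 47, with TATAAA at 92 to 87 and, on the opposite strand, at 94 to 89 and 224 to 219. Ccl12 had NF-kB letters at 17 to 9 and a TATA box at 31 to 26. Ccl3, the most abundant of the 10, had none of these spellings in its window. Over 32851 RefSeq windows of the same length, 21.0% held at least 1 NF-kB spelling (17.6%, 4.65% and 3.59% for the 3 in the order above), 6.75% the AP-1 letters, 2.98% the interferon element and 12.4% TATAAA. A match is a description of letters and not evidence of binding.

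Levels can be ranked between genes only per length, here as CPM per kilobase of merged exon. In uninjured mice Ccl3 led at 1426 ± 235 (mean ± SD, n = 2), followed by Ccl4 at 362 ± 88.3. Cxcl16 (113), Cxcl2 (107), Ccl12 (106) and Ccl2 (94.5) came next, and each of these 4 overlapped its neighbour in the order. Ccl7 (59.2) and Ccl9 (53.1) overlapped, and Cxcl10 (28.7) and Ccl5 (21.8) were lowest. At 3 days Ccl3 (2024 ± 158, n = 3) and Ccl4 (468 ± 25.6) still led without overlap. The 7 ligands from Ccl12 (172) to Ccl5 (113) then formed a run in which each overlapped its neighbour, and Ccl7 (34.4) stood alone at the bottom. Cxcl10 (115) and Ccl5, the lowest of the uninjured order, lay beside Ccl2 (119) at 3 days. Together the 10 ligands made up 0.211 and 0.259% of the scaled counts in uninjured mice, 0.351 to 0.567% at 1 day and 0.347 to 0.384% at 3 days, and Ccl3 alone gave 40.6 to 54.4% of their counts in any library.

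Ccl3 (ENSMUSG00000000982), a ligand of Ccr1, was at 965 and 1220 CPM in the uninjured libraries, 1855, 3080 and 1655 in the 1-day and 1455, 1686 and 1511 in the 3-day libraries. Every library after crush was above both uninjured libraries. The rise at 1 day was 2.01-fold from 1092 ± 180 to 2197 ± 771 CPM, or 1.01 on the log2 scale (SE 0.22, adjusted p = 0.0345). The value at 3 days was 1551 ± 121 CPM and was not called against either group (0.51, SE 0.22, adjusted p = 0.271 against uninjured; −0.50, SE 0.19, adjusted p = 0.115 against 1 day). Without replicate 2 of the 1-day group, the 1-day change was 0.64 (adjusted p = 0.0608), and it was not called with any single control or 3-day replicate left out.

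Ccl4 (ENSMUSG00000018930), an attractant of monocytes and T cells encoded next to Ccl3, was at 198 and 280 CPM in the uninjured libraries, 466, 492 and 396 in the 1-day and 322, 316 and 290 in the 3-day libraries. The 3 groups did not overlap. Ccl4 rose 1.89-fold at 1 day (log2 fold change 0.92, SE 0.18, adjusted p = 0.0168) and fell again between 1 and 3 days (−0.55, SE 0.15, adjusted p = 0.0358). At 3 days it stood 0.37 above uninjured mice (SE 0.17, adjusted p = 0.317). The rise was called with replicate 2 of the 1-day group left out (0.80, adjusted p = 0.0459), and the later fall was not (−0.48, adjusted p = 0.0665). The rise was not called without control replicate 1, and the later fall not without 1-day replicate 1, any 3-day replicate or the mitochondrial genes.

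Ccl5 (ENSMUSG00000035042), which attracts T cells and monocytes through Ccr1 among other receptors, was the one ligand called in all 3 comparisons. It was at 22.1 and 19.7 CPM in the uninjured libraries, 58.6, 46.1 and 32.4 in the 1-day and 110, 98.6 and 116 in the 3-day libraries. The libraries formed 3 steps without overlap, from 20.9 ± 1.69 to 45.7 ± 13.1 to 108 ± 8.79 CPM. The log2 fold change was 1.13 at 1 day (SE 0.26, adjusted p = 0.0387), 2.37 at 3 days (SE 0.27, adjusted p = 0.000219) and 1.25 between the times (SE 0.22, adjusted p = 0.00273). The 1-day call held without 1-day replicate 3 and with none of the other libraries left out. T cells, B cells and NK cells also make Ccl5. Their 12 markers in the table summed to 13.6 to 19.4, 11.3 to 13.6 and 15.2 to 31.6 CPM in the 3 groups, most of it Cd4 (11.1 to 28.9 CPM), which macrophages also express. Cd3e was at 0 in uninjured mice, Cd3d and Ncr1 at 1 day, and Cd8a and Gzma at 3 days.

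Ccl9 (ENSMUSG00000019122), a Ccr1 ligand of myeloid cells, was at 149 and 175 CPM in the uninjured libraries, 243, 282 and 225 in the 1-day and 338, 338 and 447 in the 3-day libraries. Again the groups formed 3 steps without overlap. The 1-day difference of 0.63 was not called (SE 0.18, adjusted p = 0.0947). DESeq2 called it (adjusted p = 0.0478), as the only 1 of 16 alternatives. Ccl9 rose by 3 days from 162 ± 18.2 to 375 ± 63.0 CPM, or by 1.21 on the log2 scale (SE 0.18, adjusted p = 0.00191), and between 1 and 3 days (0.58, SE 0.16, adjusted p = 0.0284). Without replicate 3 of the 3-day group, the highest, the latter was 0.44 (adjusted p = 0.157), and it was not called without 1-day replicate 1 or 3. Leaving out control replicate 1 gave the 3-day rise an adjusted p of 0.0549. Of its 50-base transcript stretches, 1.97% also occur in other genes.

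Ccl2 (ENSMUSG00000035385), the main monocyte attractant among the Ccr2 ligands, was at 104 and 111 CPM in the uninjured libraries, 119, 268 and 149 in the 1-day and 125, 151 and 130.5 in the 3-day libraries. All 6 libraries after crush were above the uninjured pair, but 1 library, replicate 2 at 1 day, was far above the others. None of its differences was called (0.73, SE 0.27, adjusted p = 0.208 at 1 day; 0.33, SE 0.27, adjusted p = 0.628 at 3 days; −0.40, SE 0.24, adjusted p = 0.315 between the times). Without replicate 2 the 1-day difference was 0.27 (adjusted p = 0.552).

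Ccl7 (ENSMUSG00000035373), a neighbour of Ccl2 in the genome that shares its receptor, was at 44.3 and 50.6 CPM in the uninjured libraries, 56.2, 65.6 and 62.2 in the 1-day and 27.5, 30.3 and 24.9 in the 3-day libraries. The 3-day libraries were the lowest and the 1-day libraries the highest, with no overlap. Between 1 and 3 days Ccl7 fell 2.22-fold (log2 fold change −1.15, SE 0.21, adjusted p = 0.00285). Against uninjured mice the differences were 0.37 at 1 day (SE 0.23, adjusted p = 0.516) and −0.78 at 3 days (SE 0.23, adjusted p = 0.079). The 3-day value was called lower by DESeq2 (−0.82, adjusted p = 0.00869) and not by limma-voom (−0.78, adjusted p = 0.0826). In all, 4 of 16 alternatives called it lower: DESeq2, total-count scaling, 2 groups only and the fit without 1-day replicate 2.

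Ccl12 (ENSMUSG00000035352), another Ccr2 ligand from the same stretch of chromosome 11, was at 48.7 and 64.9 CPM in the uninjured libraries, 62.9, 119 and 69.9 in the 1-day and 91.4, 68.6 and 117 in the 3-day libraries. The 1-day and uninjured libraries overlapped, as did those of 1 and 3 days. The differences were 0.56 (SE 0.29, adjusted p = 0.402), 0.70 (SE 0.29, adjusted p = 0.245) and 0.14 (SE 0.26, adjusted p = 0.793). Markers of monocytes, the cells that carry Ccr2, summed to 184 to 216 CPM in uninjured mice, 167 to 175 at 1 day and 136 to 161 at 3 days (8 of 8 detected). The sum did not follow most of the list: of 6 markers tested, 5 had a positive log2 fold change at 1 day (54.0% of all genes did). In that comparison 1 was called lower, and the median was 0.56. At 3 days 1 was positive (49.9% of all genes were) and 1 was called lower (median −0.37). Between the times 1 was called higher and 1 lower (median −1.10).

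Cxcl2 (ENSMUSG00000058427), which recruits neutrophils, was at 226 and 217 CPM in the uninjured libraries, 322, 499 and 305 in the 1-day and 295, 384 and 281 in the 3-day libraries. Libraries after crush lay above the uninjured pair without overlap, and the 2 times overlapped each other. The differences from uninjured mice were 0.76 at 1 day (SE 0.21, adjusted p = 0.092) and 0.53 at 3 days (SE 0.21, adjusted p = 0.222), and that between the times −0.23 (SE 0.19, adjusted p = 0.483). DESeq2 called the 1-day difference (0.73, adjusted p = 0.035), and limma-voom did not (0.71, adjusted p = 0.0769). Of the 50-base stretches of Cxcl2 transcripts, 5.84% also occur in Cxcl3, which was at 9.22 ± 3.43, 6.73 ± 2.15 and 8.92 ± 2.47 CPM. Neutrophil markers summed to 38.4 to 49.2, 57.0 to 142 and 20.9 to 46.5 CPM, and the 142 is replicate 2 at 1 day, also the highest for Cxcl2. The part of these cells in the ligand's level was not tested.

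Cxcl16 (ENSMUSG00000018920), the transmembrane ligand, was at 295 and 385 CPM in the uninjured libraries, 453, 718 and 532 in the 1-day and 498, 475 and 526 in the 3-day libraries. Each library after crush exceeded both uninjured ones. The differences were 0.74 at 1 day (SE 0.19, adjusted p = 0.0679), 0.55 at 3 days (SE 0.19, adjusted p = 0.150) and −0.18 between the times (SE 0.17, adjusted p = 0.539). DESeq2 and limma-voom called the 1-day difference (0.71, adjusted p = 0.0196, and 0.72, adjusted p = 0.0427). Its exons overlap those of Zmynd15 on the other strand over 552 of 3021 bases, and the strand setting of the counting is not given in the sources used here, so reads there cannot be told apart. Of 5 genes that release the soluble form or restrain that step, Timp3, an inhibitor of the sheddase Adam17, was lower at both times (329 ± 17.0 to 144 ± 27.7 and 165 ± 13.8 CPM; −1.19, adjusted p = 0.00421, and −0.99, adjusted p = 0.00672). Rhbdf2, which carries Adam17 to the cell surface, was lower at 3 days than at 1 day (−1.14, adjusted p = 0.00174). Timp3 is also abundant in vascular cells, and the 8 mural markers summed to 1339 to 1584, 728 to 906 and 1051 to 1193 CPM. The part of these cells in the level of Timp3 was not tested. Adam10 and Adam17 themselves were not called.

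Cxcl10 (ENSMUSG00000034855), an interferon-inducible attractant of T and NK cells, was at 61.8 and 67.5 CPM in the uninjured libraries, 76.5, 96.9 and 83.1 in the 1-day and 205, 290 and 283 in the 3-day libraries. The 3-day libraries stood well above all 5 others, which reached 96.9 CPM at most. The 1-day difference of 0.40 was not called (SE 0.19, adjusted p = 0.356). The 3-day rise was 2.00 on the log2 scale against uninjured mice (64.7 ± 4.05 to 259 ± 47.4 CPM, SE 0.21, adjusted p = 0.000101) and 1.60 against 1 day (SE 0.18, adjusted p = 9.17e-05). Exons of Art3 overlap 133 of 2252 bases of Cxcl10 on the other strand.

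**Figure D2:**
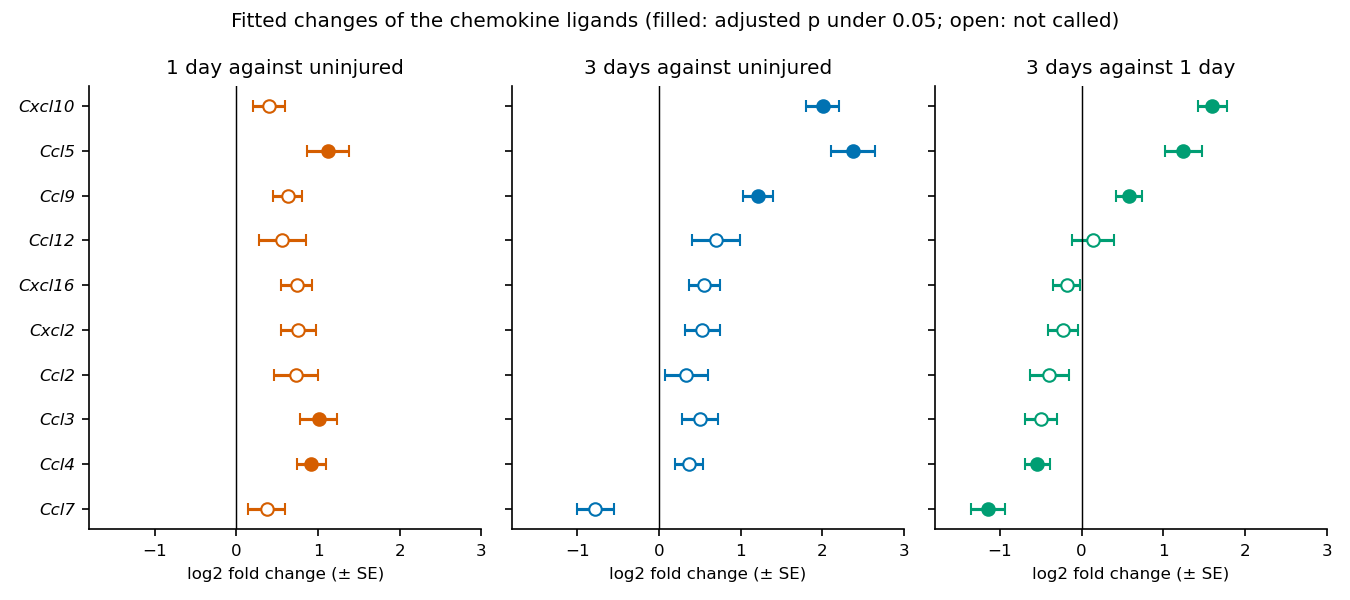
Fitted log2 fold change (horizontal axis) with its standard error for each ligand in the 3 comparisons, filled where the adjusted p was under 0.05. All 10 points lie above 0 at 1 day, and between 1 and 3 days the ligands spread from −1.15 (Ccl7) to 1.60 (Cxcl10).

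Across the set, 3 of 10 ligands were called higher at 1 day and 0 lower, where 0.61% of all tested genes were called higher and 1.16% lower (1.77% in either direction). The 1-day libraries were above both uninjured libraries for 9 of 10 ligands, all but Ccl12, against 14.3% of all genes upward and 15.0% downward. The ligands' median log2 fold change was 0.74, against 0.06 over all genes. The 10 microglial markers were shifted upward too, with a median of 0.47 and 9 of 10 positive. At 3 days 3 of 10 ligands were called higher and 0 lower, against 2.49% and 0.983% of all genes (3.47% in either direction). Their median was 0.54, against −0.00 over all genes and −0.10 for the microglial markers. Non-overlap with the uninjured pair was seen for 9 ligands upward and 1, Ccl7, downward, against 20.1% and 19.3% of all genes. Between the times 3 rose and 2 fell, against 5.24% and 5.75% of all genes (11.0% in either direction), with no overlap for the same 5 (16.1% of all genes upward and 13.6% downward). The 1-day count depended on which libraries were used: it was 0 without control replicate 1, 1 without replicate 2 of the 1-day group, 0 in a fit of only the 2 groups and 6 with DESeq2. The 3-day rises of Ccl5 and Cxcl10 and the fall of Ccl7 between the times were called under all 16 alternatives tried.

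Replicate 2 of the 1-day group was the highest of its group for 9 of 10 ligands, all but Ccl5, whereas it was the highest for 35.0% of all tested genes. For 7 ligands (Ccl2, Ccl3, Ccl4, Ccl7, Ccl12, Cxcl2 and Cxcl16) it was the highest of all 8 libraries. The summed level of the 10 was 5666 CPM there and 3712 and 3509 CPM in its partners, against 2114 and 2590 CPM in uninjured mice. Its mitochondrially encoded share was 21.9%, against 13.6% and 13.9% in replicates 1 and 3.

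**Figure D3:**
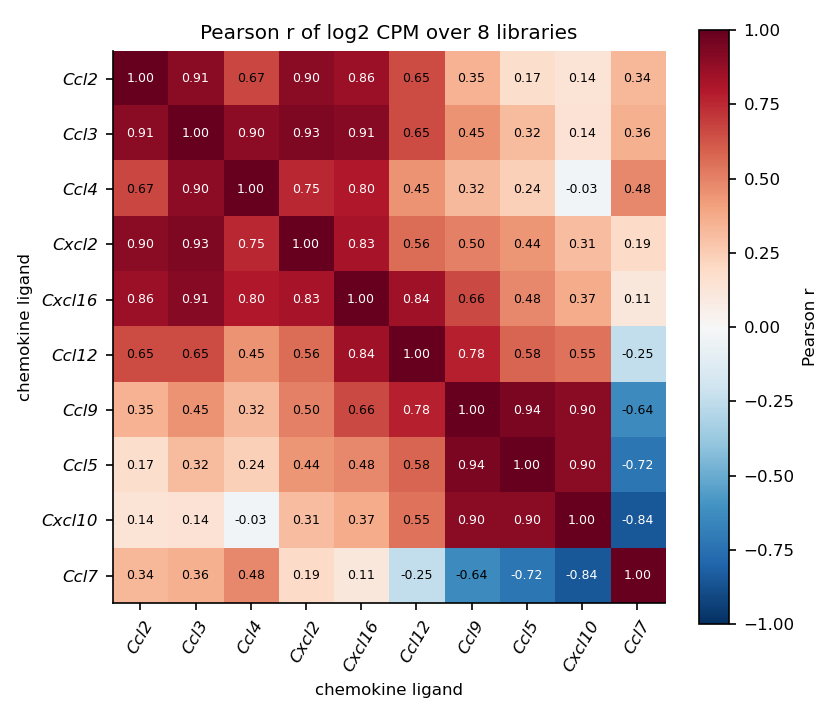
Pearson correlation of log2 CPM (prior count 2) over the 8 libraries for each pair of ligands, with the value in each cell. One block joins Ccl2, Ccl3, Ccl4, Cxcl2 and Cxcl16, another joins Ccl5, Ccl9 and Cxcl10, and Ccl7 is negative with the second block. Ccl12 is placed in neither block.

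Most of the ligands fell into sets that varied together, drawn from the same values that describe them. Over the 8 libraries, which share group and library effects, Ccl2, Ccl3, Ccl4, Cxcl2 and Cxcl16 had pairwise correlations of log2 CPM of 0.67 to 0.93, and Ccl5, Ccl9 and Cxcl10 of 0.90 to 0.94. Ccl7 was negatively related to the second set, at −0.84 with Cxcl10, −0.72 with Ccl5 and −0.64 with Ccl9. Ccl12 was placed in neither set, at 0.84 with Cxcl16 and 0.78 with Ccl9. The sets were not cleanly apart, since Ccl9 and Cxcl16 correlated at 0.66. The 8 libraries fall into 3 groups, so these values carry the differences between the groups. Among 9452 other genes averaging 5 CPM or more, those most like a called ligand were Rap1gds1, Mrpl35 and Akap13 for Ccl3 (0.98, 0.98 and 0.97), Dot1l, Bin2 and Aff1 for Ccl4 (0.99, 0.98 and 0.98) and Vcp, Lig1 and Lrrc8d for Ccl5 (0.99, 0.98 and 0.98). For Ccl7 they were Wdfy3, Cep68 and Ankrd44 (0.99, 0.99 and 0.98), for Ccl9 Pik3cb, Rpn1 and Igsf9 (each 0.99) and for Cxcl10 Gusb, Tubb5 and Nsd2 (each 0.99).

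All CC ligands here and Cxcl16 lie on chromosome 11, and Cxcl2 and Cxcl10 on chromosome 5. In RefSeq's order of coding genes, Ccl5, Ccl9, Ccl6, Ccl3 and Ccl4 follow each other: the first 3 were called higher at 3 days, and the first and the last 2 at 1 day. In the other group, Ccl2, Ccl7, Ccl11, Ccl12 and Ccl8, the adjacent Ccl2 and Ccl7 had 3-day differences of 0.33 and −0.78. The unstable-mRNA heptamer TATTTAT occurred in the annotated 3′ UTR of 4 of 10 ligands, 7 times in Cxcl2 and 1 time each in Ccl3, Ccl4 and Ccl12. At least 1 copy was present in 30.4% of 13536 genes and at least 3 in 4.11%, while the ligands' 3′ UTRs were shorter (median 422 against 1192 bases).

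Of 27 further chemokine ligands, 16 could be tested, with 0 called higher and 1 lower at 1 day, 1 higher at 3 days, and 4 higher and 0 lower between the times (medians −0.06, 0.18 and 0.32). Ccl6, the Ccr1 ligand between Ccl9 and Ccl3, was at 27.6 ± 2.92, 35.0 ± 15.0 and 137 ± 29.0 CPM, a 3-day log2 fold change of 2.31 (SE 0.32, adjusted p = 0.001). Cxcl12, a Cxcr4 ligand made largely by vascular and stromal cells, fell from 119 ± 5.44 to 36.0 ± 12.6 CPM at 1 day (−1.72, SE 0.24, adjusted p = 0.00301) and was at 94.4 ± 5.36 CPM at 3 days (1.39 above 1 day, adjusted p = 0.00131). Its course ran beside that of the endothelial markers given above, and their part in it was not tested. Cxcl11 and Cxcl14 were called higher between the times (3.68, adjusted p = 0.0476, and 4.90, adjusted p = 0.0261). At 3 days they were still low, at 5.37 ± 4.38 and 4.27 ± 1.84 CPM. These calls were lost under 9 and 4 of 16 alternatives.

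Receptor levels were set beside those of the ligands per length. Per kilobase of exon, Ccr1 was at 2.56, 3.18 and 2.06 CPM in the 3 groups, and the means of Ccr2, Ccr3, Cxcr2, Cxcr3, Cxcr6 and the scavenger receptor Ackr1 lay at 0.457 to 1.26, 0.354 to 1.29 and 0.133 to 2.42. Ackr2, the other scavenger of CC ligands, was at 0.043 and 0.222 in uninjured and 3-day mice and had 0 counts at 1 day. Of 23 chemokine receptors 20 were tested, and 0 were called at 1 day or at 3 days against uninjured mice by edgeR (3 and 3 at an unadjusted p under 0.05, and 0 and 0 called by DESeq2 and by limma-voom; medians 0.24 and 0.15). The comparison between the times is not reported here for the receptors. Cx3cr1, the fractalkine receptor that marks microglia, was at 1380 ± 103, 1966 ± 415 and 1694 ± 334 CPM.

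**Figure D4:**
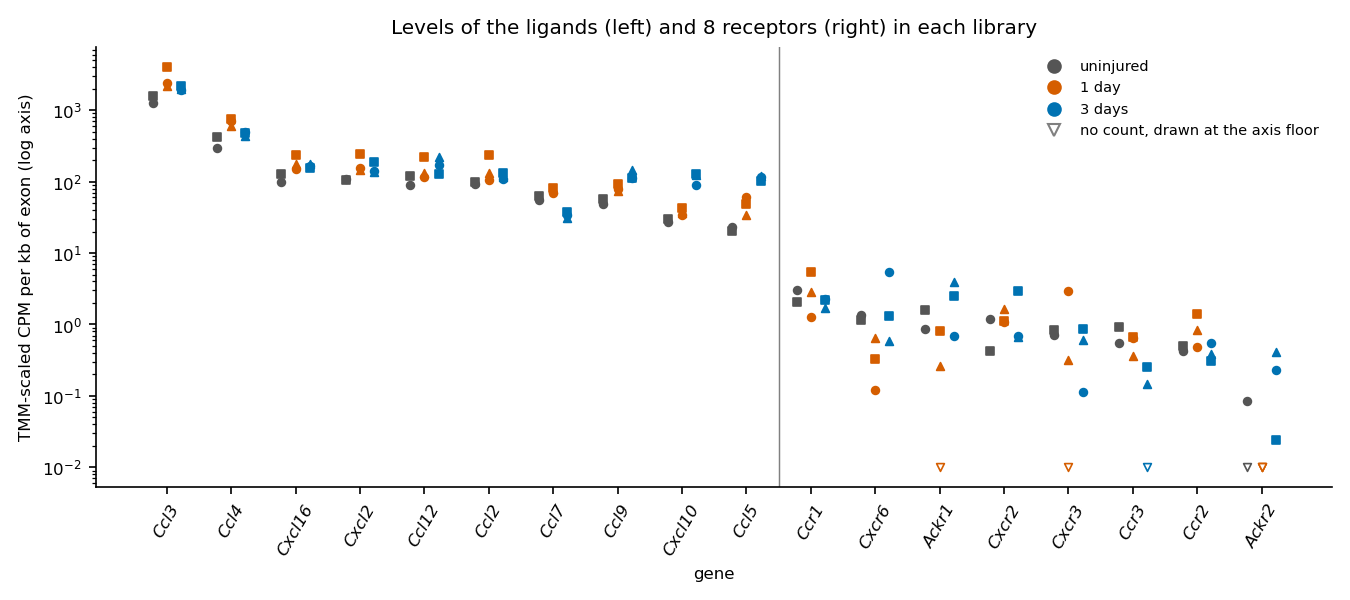
Level in TMM-scaled CPM per kilobase of exon (log axis) of the 10 ligands (left) and 8 receptors (right) in every library, with open triangles for a library without a count. Each ligand lies above the receptors shown in every library, and Ccr1 is the highest of these in uninjured mice.

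Of 25 genes that control chemokine transcription and mRNA decay, 5 were called higher at 1 day and 0 lower, all 25 had a positive log2 fold change (54.0% of all genes did), and the median was 0.67. They were Nfkb1 (0.85, adjusted p = 0.00613) and Rel (0.80, adjusted p = 0.00678), both NF-kB subunits, Nfkbiz (0.89, adjusted p = 0.0114), an atypical NF-kB cofactor, Tnfaip3 (0.80, adjusted p = 0.0467), which ends NF-kB signalling, and Zfp36 (0.93, adjusted p = 0.0402), which destroys chemokine mRNA. Between 1 and 3 days 15 of 25 fell and 0 rose (median −0.69), led by Nfkb1 (−1.16, adjusted p = 5.83e-05), Rel (−1.08, adjusted p = 7.28e-05), Fos (−1.48, adjusted p = 0.000176), Nfkbiz and Tnfaip3. Over all genes 5.75% were called lower between the times and 5.24% higher. Of the 10 microglial markers, 5 were called lower and 0 higher (median −0.62). At 3 days against uninjured mice 1 of the 25 was called, Fos, an AP-1 subunit, which fell by 0.83 (adjusted p = 0.0295). It was not called with the replicate block or without either control replicate or 3-day replicate 1 or 3. The 1-day calls of Tnfaip3 and Zfp36 were lost under 11 and 9 of 16 alternatives, that of Nfkbiz under 3, and those of Nfkb1 and Rel under 1. The number higher at 1 day was 0 without control replicate 1 and 10 with DESeq2, and the number lower between the times was 8 without replicate 3 of the 3-day group.

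Of 18 inducing cytokines and their receptors, 3 rose at 1 day and 3 at 3 days, with 0 lower. Over all genes 0.61% were called higher and 1.16% lower at 1 day, and 2.49% and 0.983% at 3 days. DESeq2 called 4 of the 18 higher and 1 lower at 1 day, and 3 higher and 1 lower at 3 days. The Tnf calls below were lost under 2 of 16 alternatives at each time, and those of Il1b under 0. Tnf, the cytokine that induces many CC ligands, was at 297 ± 115, 840 ± 282 and 775 ± 87.0 CPM (1.50, adjusted p = 0.0101 at 1 day; 1.38, adjusted p = 0.00924 at 3 days). Il1b rose at both times (1.79 and 1.44, adjusted p = 0.00132 and 0.00191) and Il1a at 1 day (1.51, adjusted p = 0.00132). Tlr2, a receptor for bacterial lipoproteins, rose at 3 days (324 ± 21.6 to 685 ± 31.6 CPM; 1.08, adjusted p = 0.00191). Between the times Tlr2 had an adjusted p of 0.0499 (0.46), a call lost under 12 of 16 alternatives, including each library left out except 1-day replicate 2. Called lower between the times were Il1a, Ifngr1 and Tnfrsf1b (−1.32, −1.03 and −0.49).

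Interferon-stimulated genes were listed beside Cxcl10, which interferons induce. Of 20, 0 were called at 3 days in either direction by edgeR (3 at an unadjusted p under 0.05, 1 called lower by DESeq2 and 0 called by limma-voom), 5 had a positive log2 fold change (49.9% of all genes did), and the median was −0.25. At 1 day 1 was called, Rsad2, an antiviral enzyme, which fell by 1.53 (adjusted p = 0.0464), and the median was −0.51. That call was lost under 7 of 16 alternatives: 2 groups only, and without control replicate 1, 1-day replicate 1 or 2, or any 3-day replicate. Between the times 0 were called by edgeR (4 at an unadjusted p under 0.05, 0 called by DESeq2 and limma-voom; median 0.17). Ifng, the T and NK cell interferon, had 0 counts in all 5 uninjured and 1-day libraries and 14, 28 and 0 counts in the 3-day libraries. Its part in the levels of the ligands was not tested.

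**Figure D5:**
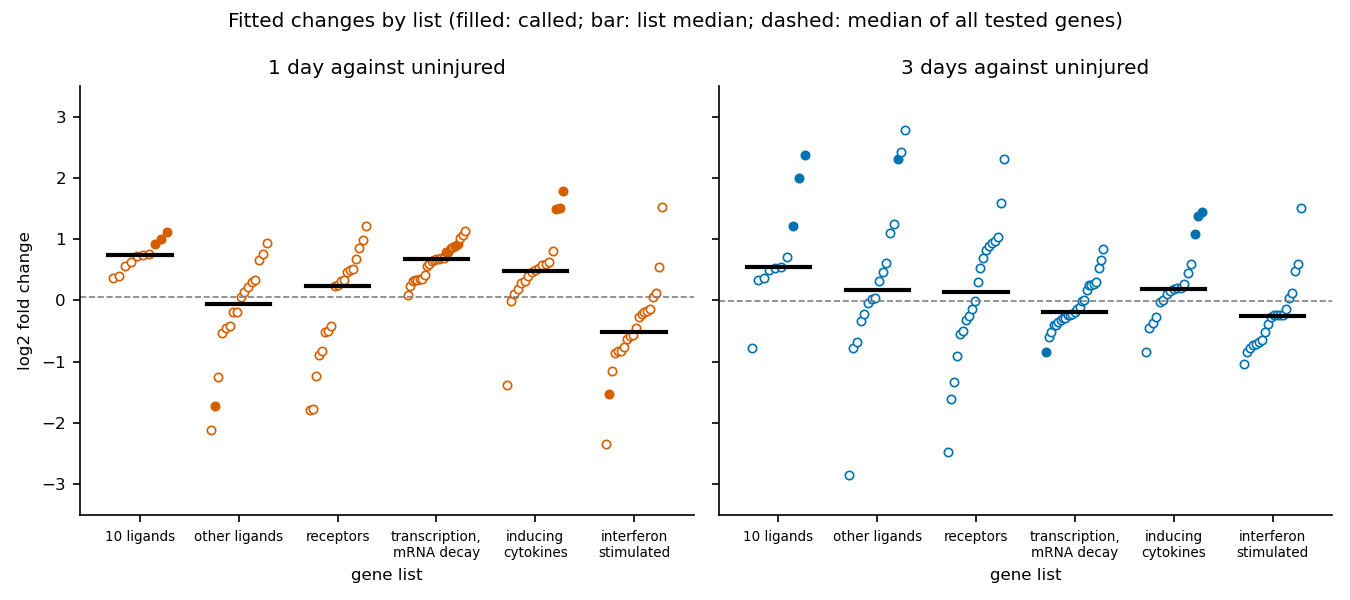
Fitted log2 fold change (vertical axis) of every tested gene of 6 lists at 1 day (left) and 3 days (right) against uninjured mice, filled where called, with a bar for the list's median and a dashed line for all genes; genes without a count in 1 of the groups are not drawn. The ligands' median is 0.74 and then 0.54, while that of the transcription and decay genes goes from 0.67 to −0.19 and that of the interferon-stimulated genes is −0.51 and then −0.25.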

How the data were processed

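RNA was sequenced from CD11b bead-purified LGN cells in 8 libraries. The authors deposited raw counts of reads for each Ensembl gene, made with FastQC, STAR and HTSeq on mm9, per the submitters' processing notes. Which versions, annotation and strand option they used is not given in the sources used here, and groups came from the sample labels. Symbols (25925 of 26062 genes matched), exon lengths, overlaps and 3′ UTRs came from GENCODE M21, and promoter windows and gene order from RefSeq (GRCm38.p6), a build other than that of the counts.

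The counts went into edgeR 4.0.16 (R 4.3.3) with default filterByExpr and TMM scaling. A robust quasi-likelihood model with a mean per group held all 8 libraries, because the uninjured group has only 2. The standard error is the log2 fold change divided by the square root of F. The biological coefficient of variation was 51.1%. Alternatives were DESeq2 1.42.0, limma-voom (limma 3.58.1), other scaling, no filter, 2 groups only, the replicate number as a block, no mitochondrial genes, and each library left out.

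The members, lists and tests were chosen with earlier results of these data known. Named were all 10 ligands, 8 receptors, up to 5 called genes per list and comparison by smallest p, and the 3 genes most correlated with each called ligand. Genes given as neighbours or overlapping, Cxcl3, Cx3cr1, Cd4, Ifng and marker genes at 0 were added after their values were seen. Some items under this rule are not reported here.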

Additional observations from a re-analysis of the deposited data

Results flagged for a closer look

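For 5 ligands the levels at the 2 times after crush differed from each other by a direct test. It was the comparison of 3 days with 1 day (edgeR's quasi-likelihood test, 3 against 3 libraries). Cxcl10 was 1.60 higher at 3 days on the log2 scale (adjusted p = 9.17e-05), Ccl5 1.25 higher (adjusted p = 0.00273) and Ccl9 0.58 higher (adjusted p = 0.0284). For Ccl7 the later level was lower, with a log2 difference of −1.15 (adjusted p = 0.00285), and likewise for Ccl4, at −0.55 (adjusted p = 0.0358). The call of Ccl4 was lost under 6 of 16 alternatives and kept in 3 of 8 fits with a library left out. That of Ccl9 was lost under 3 of 16. The libraries of the 2 times did not overlap for any of the 5. The reason for the differences was not tested.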

How the results depend on the processing

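Of 480 log2 fold changes of the ligands under 16 alternatives, 434 kept direction and side of the threshold, 30 lost and 11 gained a call, and 5 uncalled values between the times changed sign. Those were Ccl2 (0.013), Cxcl2 (0.025) and Cxcl16 (0.015) without 1-day replicate 2, and Ccl12 without 1-day replicate 1 (−0.033) or 3-day replicate 3 (−0.064). With a library left out, the difference between the times ran from −0.62 to 0.013 for Ccl2, −0.38 to 0.025 for Cxcl2, −0.33 to 0.015 for Cxcl16 and −0.064 to 0.47 for Ccl12. The 3 ligands called at 1 day were 6 with DESeq2, 1 with total-count scaling, 0 with 2 groups only and 0 to 3 with a library left out: 0 without control replicate 1, and 1 without control replicate 2, 1-day replicate 2 or any 3-day replicate. Ccl3 lost its 1-day call under 7 alternatives, Ccl4 under 3 and Ccl5 under 10. At 3 days 2 to 4 ligands were called with a library left out, Ccl9 losing its call without control replicate 1 (adjusted p = 0.0549). Between the times there were 3 to 5, 3 without 1-day replicate 1 or 3-day replicate 3. A lone uninjured library was assumed to vary like the other groups. Of all genes, 308 were called at 1 day, 816 with DESeq2, 110 with 2 groups only and 39 to 368 with a library left out. At 3 days 604 were called, 1308 with DESeq2, 1345 with 2 groups only and 108 to 982 with a library left out, and between the times 1912 and 747 to 2362. The 106 higher and 202 lower genes at 1 day were 46 and 233 with total-count scaling and 187 and 164 with limma-voom, and the 433 and 171 at 3 days were 317 and 244 with total-count scaling, which moved the median gene by −0.15. With the replicate number as a block, 4, 3 and 5 ligands and 301, 424 and 1700 genes were called, and deviations of same-numbered libraries correlated at −0.06 to 0.09, so the numbers were not taken to pair samples.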
